A study of Homo sapiens with 6 samples.

Results

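The 9 genes described here encode coactivators and corepressors of nuclear receptors: NCOA1, NCOA2, NCOA3, EP300, CREBBP, NCOR1, NRIP1, CTBP1 and CTBP2. They were taken by symbol from a table of 17990 genes, each was found on 1 line, and all 9 had the mean of at least 20 counts per library that 11916 genes reached. The cells were LNCaP, a human prostate cancer line that carries the androgen receptor and responds to androgens. Per the labels' protocols they were kept for 3 days in medium with 2.5% hormone-stripped serum and then given 10 nM dihydrotestosterone (DHT), a natural androgen, for 3, 6, 12, 24 or 48 h. The groups were therefore DHT at 5 times and untreated cells at 0 h, all of 1 line and with 1 library each. No library of untreated cells at a later time was among them, so DHT and time since 0 h cannot be told apart. The series asks which transcripts respond to androgen and when.

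A steroid receptor that has bound its hormone changes shape and takes up coactivators through short leucine-rich motifs. The p160 proteins (NCOA1, NCOA2 and NCOA3) bind the receptor directly and bring in the histone acetyltransferases EP300 and CREBBP. Corepressors work the other way: NCOR1 recruits histone deacetylases, NRIP1 binds hormone-loaded receptors in competition with the p160 proteins, and CTBP1 and CTBP2 are NADH-binding corepressors that NRIP1 can recruit. In prostate cells these proteins are known as modifiers of the androgen receptor's output.

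With 1 library per group there was no spread between replicates and no test, and no p-value is given. Levels are given as CPM, the count of a gene divided by all counts of its library and set to a common total. Changes are log2 differences of (CPM + 1) from the untreated library, and a gene was called higher or lower at 2-fold. All 95% intervals cover counting error only, and reads are not known to be separate molecules. The libraries held 13179917 to 20587956 counts. Known androgen-induced genes were higher with DHT, with log2 changes at 24 h of 5.25 in FKBP5, 3.47 in TMPRSS2, 1.57 in KLK2 and 1.08 in KLK3. The 7 LNCaP markers summed to 8578 to 16598 CPM in DHT libraries and 7807 CPM in untreated cells, and all 7 passed the filter. Of 5 leukocyte and 3 basal epithelium markers 0 passed, and they summed to at most 0.807 and 0.895 CPM in any library. Of 5 fibroblast markers 2 passed, and the 5 summed to 32.1 to 70.0 CPM in DHT libraries and 67.5 CPM in untreated cells.

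Promoter windows of 300 bases, from 250 bases before to 50 after a gene start, were taken from RefSeq on GRCh38.p14 and are shown because they set NRIP1, past 2-fold from 6 h on as measured, beside members that stayed within 2-fold. They covered 8 members with 20 alternative starts. Both strands were searched for AGAACA, an element of androgen receptor sites, and for GGTCA, an element of sites of other nuclear receptors. AGAACA was found in 2 of the 20 windows, against 14.8% of 35116 windows of the genome, and GGTCA in 3 of 20, against 37.4%. NRIP1, the member with the largest increase from 6 h on as measured, though below CTBP1 at 6, 24 and 48 h after the correction for GC content described below, had AGAACA in 0 of its 3 windows and GGTCA in 1 of 3. The windows with AGAACA belonged to NCOA1 and CREBBP, both of which stayed within 2-fold of their untreated level. The sequences run 5′ to 3′ on the gene's strand, with capitals for AGAACA or GGTCA or their reverse complements. The first base of the match lay at position 23 in NCOA1, -177 in CREBBP and -170 in NRIP1, counted from 0 at the gene start. A match describes letters and not binding, and no match says only that the letters are missing from the window.
NRIP1 at the outermost start (chr21:15065887-15066186, minus strand): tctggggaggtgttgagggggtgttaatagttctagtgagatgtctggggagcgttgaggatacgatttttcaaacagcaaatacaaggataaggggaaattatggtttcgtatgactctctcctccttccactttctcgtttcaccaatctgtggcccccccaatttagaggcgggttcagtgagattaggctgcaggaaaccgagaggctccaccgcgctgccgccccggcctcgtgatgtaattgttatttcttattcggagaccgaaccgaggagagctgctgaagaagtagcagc
NRIP1 at an inner start (chr21:15064951-15065250, minus strand): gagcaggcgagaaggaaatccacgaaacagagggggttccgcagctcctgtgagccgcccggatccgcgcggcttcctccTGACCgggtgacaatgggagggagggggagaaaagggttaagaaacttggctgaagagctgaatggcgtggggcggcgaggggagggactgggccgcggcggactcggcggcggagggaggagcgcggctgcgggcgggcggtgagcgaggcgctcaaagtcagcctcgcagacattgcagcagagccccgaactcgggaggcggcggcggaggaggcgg
NCOA1 (chr2:24491004-24491303, plus strand): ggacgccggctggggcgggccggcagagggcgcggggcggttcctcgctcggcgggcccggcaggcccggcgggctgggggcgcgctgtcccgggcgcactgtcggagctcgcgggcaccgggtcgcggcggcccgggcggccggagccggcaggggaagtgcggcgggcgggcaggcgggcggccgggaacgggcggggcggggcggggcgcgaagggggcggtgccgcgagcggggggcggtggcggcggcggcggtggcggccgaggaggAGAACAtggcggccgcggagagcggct
CREBBP (chr16:3880071-3880370, minus strand): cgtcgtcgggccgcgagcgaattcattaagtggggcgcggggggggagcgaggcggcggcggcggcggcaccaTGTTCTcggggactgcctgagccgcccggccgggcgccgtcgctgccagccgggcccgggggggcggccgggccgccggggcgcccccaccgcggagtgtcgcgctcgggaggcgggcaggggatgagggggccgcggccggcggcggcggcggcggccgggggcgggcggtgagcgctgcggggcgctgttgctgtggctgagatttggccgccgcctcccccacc

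**Figure D1:**
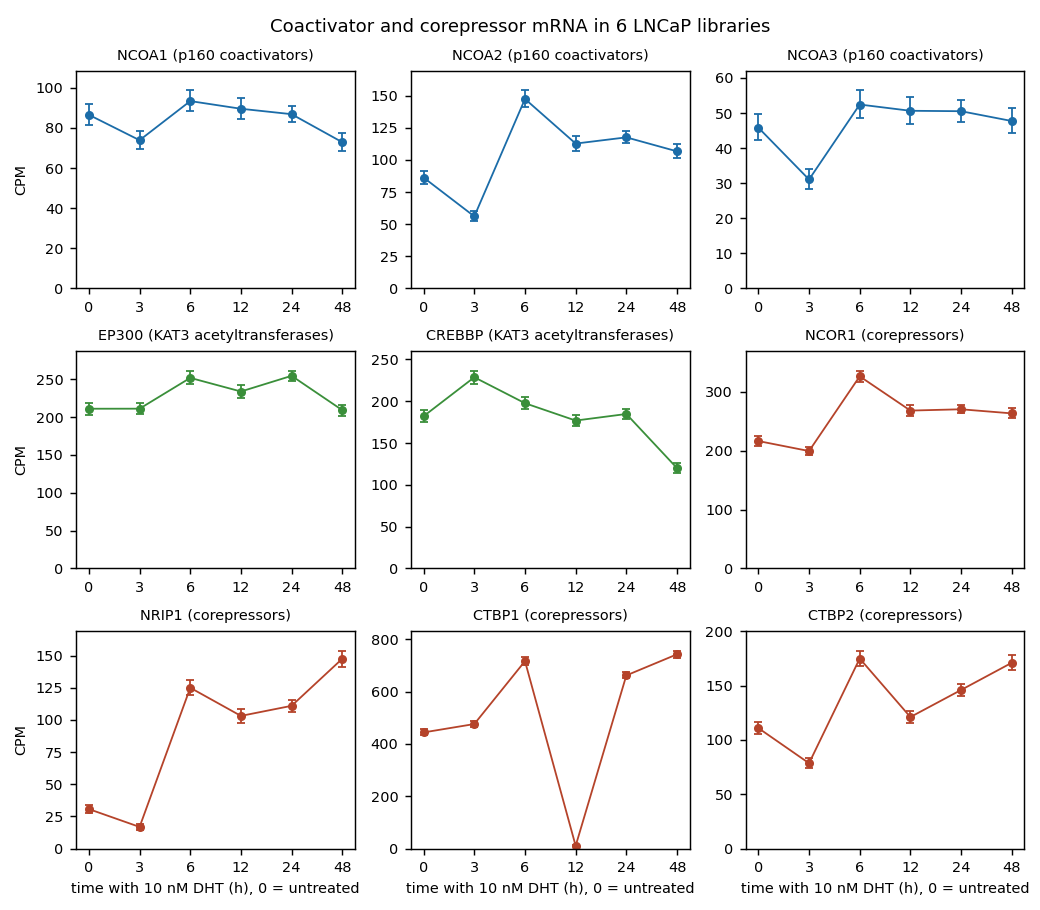
Level of each member in CPM (linear axis from 0) against time with 10 nM DHT, 0 being untreated cells, with 1 library per point and bars for the 95% Poisson interval of counting. NRIP1 lies at 103 to 148 CPM from 6 h on and at 16.8 and 30.7 CPM in the 3 h and untreated libraries, and CTBP1 is at 10.3 CPM in the 12 h library.

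NRIP1 was the member past 2-fold higher than untreated cells as measured, at every time after 3 h. At 6 h the other members but NCOA1 also stood above untreated cells as measured, with counting intervals that exclude 1, each within 2-fold. With the GC trend described below removed, NCOA3 stood at -0.43 at 6 h and CTBP2 at 0.04. NCOA2, EP300, CREBBP and NCOR1 were then at 0.22, 0.33, 0.38 and 0.21, and CTBP1 at 1.16, past 2-fold. Over the 6 times, from untreated cells at 0 h to 48 h, NRIP1 had 404, 237, 1676, 1405, 2284 and 2220 counts, which are 30.7, 16.8, 125, 103, 110.9 and 148 CPM. The libraries from 6 h on all lay above both earlier ones, and the 3 h library was the lowest of the 6. At 24 h its level was 3.62 times the untreated one (95% interval 3.25 to 4.03, log2 change 1.82) and at 48 h 4.81 times (4.33 to 5.36, log2 change 2.23). At 3 h it was 0.548 times the untreated level (0.465 to 0.645), a log2 change of -0.83 that did not reach 2-fold and stood at percentile 2.10 of measured genes. Between 3 and 6 h its level went up 7.44-fold (6.49 to 8.56), and NCOA2 and CTBP2 also passed 2-fold in that step, so 3 of 9 members were higher and 0 lower, beside 20.9 and 1.4% of all genes. With the GC trend described below removed, a setting added after seeing the data, the step was 2.57-fold in NRIP1, 1.601-fold in NCOA2, 1.28-fold in CTBP2 and 2.03-fold in CTBP1. On that scale 2 of 9 members, NRIP1 and CTBP1, were higher and 0 lower, beside 4.14 and 1.65% of genes.

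Counted over the 9 members, NRIP1 alone was at least 2-fold higher at 6, 12, 24 and 48 h, and 0 members were higher at 3 h. Among all measured genes 0.747, 15.3, 11, 10.5 and 15% were higher at 3, 6, 12, 24 and 48 h. With 1 of 9 members, the share was close to that background at each time from 6 h on. At 3, 6, 24 and 48 h 0 members were at least 2-fold lower, where 0.864, 3.01, 10.8 and 7.33% of genes were. At 12 h 1 member was, CTBP1, where 7.99% of genes were, and its value is described with its chromosome below. The median change of the members was -0.23, 0.59, 0.14, 0.32 and 0.28 at 3, 6, 12, 24 and 48 h, beside -0.08, 0.08, 0.03, -0.09 and -0.06 over all genes. With the GC trend described below removed, the medians of the members were -0.07, 0.22, -0.06, 0.20 and 0.12. Those over all genes were then 0.01, -0.01, -0.02, 0.01 and -0.01.

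The changes of these genes have to be read beside the GC content of their transcripts. Across 11484 genes the change from untreated cells correlated with GC content at r = 0.23, -0.74, -0.43, -0.52 and -0.56 at 3, 6, 12, 24 and 48 h, so that AT-rich transcripts stood low at 3 h and high later. NRIP1 has a GC content of 37.7%, at percentile 5.75 of measured genes, and CTBP1 has 61.1%, at percentile 86.3. The other members lie between 42.6% (NCOA3) and 55.8% (CREBBP). Over the 9 members the correlation with GC content was 0.88 at 3 h and -0.43, -0.79, -0.37 and -0.40 later, and without CTBP1 it was 0.93 at 3 h and -0.65, -0.62, -0.60 and -0.74 later. These values describe genes of the same libraries.

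With the GC trend of all genes removed, NRIP1 stood at -0.50, 0.86, 0.81, 1.08 and 1.13 at 3, 6, 12, 24 and 48 h. It thus stayed past 2-fold at 24 and 48 h and fell short of it at 6 and 12 h. Its corrected values stood at percentiles 93.8 to 94.7 from 6 h on. After correction 0.932, 3.77, 3.98, 7.09 and 7.22% of genes were at least 2-fold higher at 3, 6, 12, 24 and 48 h, and of the members 0, 1, 0, 2 and 2. CTBP1 moved the other way under the correction, to 1.16, 1.13 and 1.22 at 6, 24 and 48 h, past 2-fold at these 3 times. At least 2-fold lower after correction were 0 members at 3, 6, 24 and 48 h, where 0.418, 1.56, 6.55 and 4.82% of genes were, and CTBP1 at 12 h, where 7.41% were. The part of GC content in either gene's change was not tested.

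**Figure D2:**
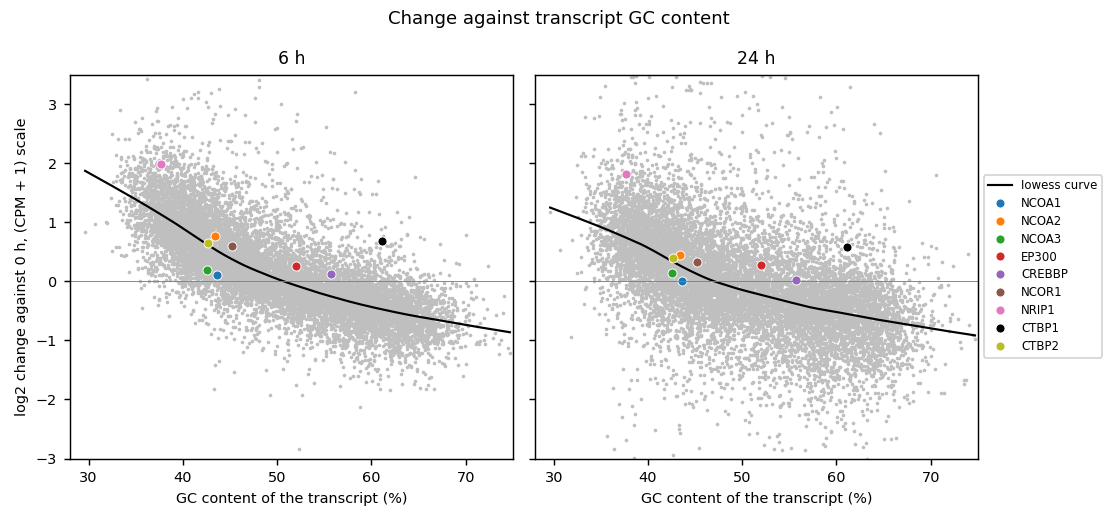
Log2 change from untreated cells at 6 h and 24 h (vertical axis, cut at -3 and 3.5) against GC content of the transcript in percent, with 1 grey point per gene, the lowess curve of all genes in black and the members in colour. NRIP1 lies above the curve at the AT-rich end and CTBP1 above it at the GC-rich end, while NCOA1 and NCOA3 lie below it.

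The 3 p160 coactivators stayed within 2-fold of their untreated level at every time. NCOA1, which binds many steroid receptors, had 86.6, 73.9, 93.4, 89.6, 86.9 and 72.9 CPM over the times from 0 to 48 h. Its highest and lowest libraries differed by only 0.35 on the log2 scale, and the 24 h library was 1.004 times the untreated one (0.931 to 1.08). NCOA2, a coactivator also known for its work with the glucocorticoid receptor, had 86.3, 56.0, 148, 113, 118 and 107 CPM. It was low at 3 h (0.650 times untreated, 0.593 to 0.712) and highest at 6 h (1.71 times, 1.59 to 1.84), and the 6 h level was 2.63 times the 3 h level (2.42 to 2.86). NCOA3, first described as amplified in breast cancer, had 45.8, 31.0, 52.4, 50.6, 50.5 and 47.7 CPM. Its 3 h library was the lowest at 0.677 times untreated (0.597 to 0.767), and from 12 h on each interval of the ratio included 1.

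GC correction turned the sign of some p160 values and kept that of others. NCOA1 was at 0.11, 0.05 and 0.01 at 6, 12 and 24 h as measured and at -0.41, -0.38 and -0.25 corrected. NCOA3 was at 0.19, 0.14, 0.14 and 0.06 from 6 h on and at -0.43, -0.37, -0.20 and -0.39 corrected. For NCOA2 the corrected values were 0.22, -0.06, 0.17 and -0.05 from 6 h on, against 0.77, 0.38, 0.44 and 0.30 as measured. At 3 h the corrected values were -0.07 in NCOA1, -0.45 in NCOA2 and -0.36 in NCOA3, against -0.23, -0.61 and -0.55 as measured, below 0 on both scales. NCOA1 at 48 h was also below 0 on both, with -0.58 corrected and -0.24 as measured, and NCOA2 was above 0 on both at 6 and 24 h. None of these values reached 2-fold.

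Ratios inside a library do not depend on its total. NCOA2 and NCOA1, which have nearly the same GC content (43.4 and 43.6%), had 0.758, 1.58, 1.26, 1.35 and 1.46 NCOA2 counts per NCOA1 count at 3, 6, 12, 24 and 48 h, against 0.996 in untreated cells. Relative to untreated cells the ratio was 0.761 (0.673 to 0.861) at 3 h and 1.58 (1.42 to 1.77) at 6 h, and it stayed above 1 from then on, at 1.47 (1.31 to 1.64) at 48 h. With the GC trend removed these 3 values were 0.768, 1.56 and 1.44. The ratio of NCOA2 to NCOA3 was 1.495 times (1.31 to 1.70) its untreated value at 6 h and 1.19 times (1.04 to 1.36) at 48 h. Per kilobase of transcript, NCOA2 made up 46.4% of the p160 sum at 6 h and 43.2% at 48 h, against 35.8% in untreated cells. NCOA1 made up 36.0% at 6 h and 36.2% at 48 h, against 44.0% in untreated cells, and NCOA3 stayed between 17.6 and 20.6% in all 6 libraries.

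**Figure D3:**
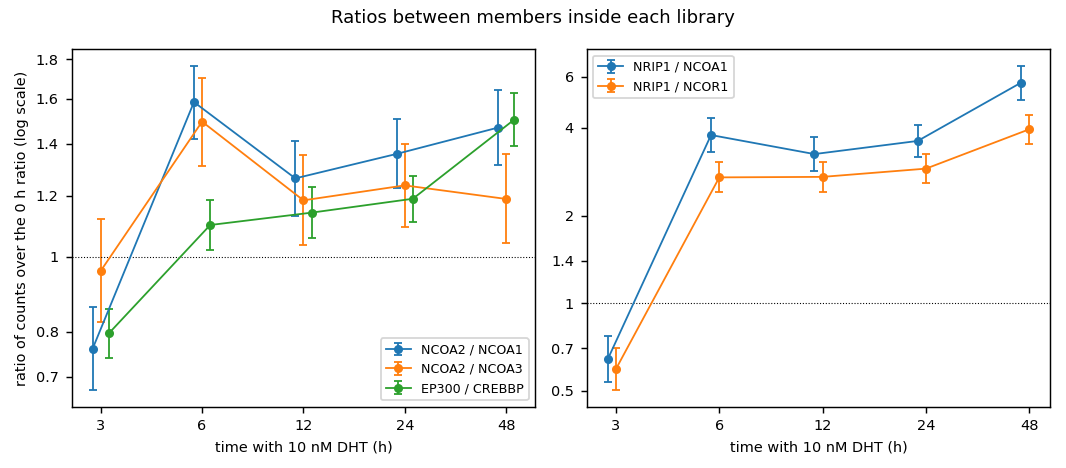
Ratio of the counts of 2 members inside each DHT library, divided by the same ratio in untreated cells (log axis), against time, with bars for 95% intervals of counting error. NCOA2 per NCOA1 lies above 1 from 6 h on, EP300 per CREBBP reaches 1.5 at 48 h, and NRIP1 per NCOA1 reaches 5.72 at 48 h, which is 3.26 with the GC trend removed.

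EP300 and CREBBP, paired acetyltransferases that mark active enhancers, went apart late in the series. EP300 had 211.2, 211.2, 252, 234, 255 and 209 CPM over the times from 0 to 48 h. CREBBP had 182, 229, 198, 177, 185 and 120.0 CPM, its highest library being 3 h and its lowest 48 h. As measured, EP300 moved by no more than 0.27 from untreated cells, and its range over the libraries was the smallest of the 9 genes. After GC correction its changes from 6 h on were 0.33, 0.21, 0.50 and 0.27. CREBBP was 1.26 times its untreated level at 3 h (1.19 to 1.32), a change at percentile 92.4 of measured genes, and 0.659 times at 48 h (0.619 to 0.701). Neither reached 2-fold, and the log2 change of CREBBP at 48 h was -0.60 as measured and -0.20 after GC correction.

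EP300 counts per CREBBP count were 0.924, 1.28, 1.32, 1.38 and 1.74 at 3, 6, 12, 24 and 48 h, against 1.16 in untreated cells. The ratio at 48 h was 1.5 times the untreated one (1.39 to 1.63) and at 3 h 0.797 times (0.740 to 0.858), or 1.38 and 0.802 times with the GC trend removed. At 6 h it was 1.0996 times (1.02 to 1.18) as measured and 0.967 times corrected. CREBBP transcripts have a GC content of 55.8% and those of EP300 52.0%. The 48 h level was 0.649 times the 24 h level in CREBBP (0.614 to 0.687) and 0.822 times in EP300 (0.786 to 0.859).

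NCOR1, the scaffold of a complex with HDAC3, had 216, 199, 326, 268, 270.3 and 263 CPM over the times from 0 to 48 h. The untreated and 3 h libraries were the lowest and the 6 h library the highest, at 1.51 times untreated (1.44 to 1.58). At 24 h it was 1.25 times untreated (1.19 to 1.31), and its GC-corrected changes from 6 h on were 0.21, 0.00, 0.20 and 0.12. GENCODE v29 lists 3 pseudogenes named after NCOR1 and 8 named after CTBP2, so reads of these 2 genes may be shared with copies. NRIP1 counts per NCOR1 count were 2.90 times (2.58 to 3.25) the untreated ratio at 24 h and 3.95 times (3.52 to 4.44) at 48 h. NRIP1 transcripts are poorer in GC than those of NCOR1 (37.7 and 45.2%), and with the GC trend removed the ratio was 1.85 times the untreated one at 24 h and 2.02 times at 48 h.

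CTBP1, which acts as a repressor through bound partners such as NRIP1, had 444, 476, 716, 10.3, 662 and 742 CPM over the times from 0 to 48 h. Apart from the 12 h library, the libraries from 6 h on lay above the untreated and 3 h ones. At 24 h it was 1.49 times untreated (1.45 to 1.54) and at 48 h 1.67 times (1.62 to 1.73), log2 changes of 0.58 and 0.74 that did not reach 2-fold unless corrected for GC content. Its paralog CTBP2 had 110.9, 78.5, 175, 121, 146 and 171 CPM. CTBP2 was lowest at 3 h (0.708 times untreated, 0.654 to 0.766) and at 6 and 48 h 1.58 (1.48 to 1.69) and 1.54 times (1.45 to 1.65) untreated, again within 2-fold. Its log2 changes from 6 h on were 0.65, 0.13, 0.39 and 0.62 as measured. With the GC trend removed they were 0.04, -0.38, 0.07 and 0.18, and the 3 h change was -0.31, against -0.49 as measured.

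The proportion of CTBP1 to CTBP2 depended on the treatment of GC content, which is 61.1% in CTBP1 and 42.7% in CTBP2. CTBP1 counts per CTBP2 count were 6.06, 4.10, 4.54 and 4.34 at 3, 6, 24 and 48 h, against 4.004 in untreated cells. Relative to untreated cells the ratio was 1.51 (1.39 to 1.65) at 3 h, 1.02 (0.951 to 1.101) at 6 h, 1.13 (1.06 to 1.21) at 24 h and 1.08 (1.01 to 1.17) at 48 h. In the 12 h library it was 0.0214 (0.0178 to 0.0256). With the GC trend removed the ratio was 1.37, 2.18, 2.09 and 2.05 times the untreated one at 3, 6, 24 and 48 h.

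The 12 h library stands apart for genes of chromosome 4, where CTBP1 lies. CTBP1 had 141 counts at 12 h, against 5850 in untreated cells, and stood at 1.5% of the mean of its 6 and 24 h levels. The 386 measured genes of chromosome 4 stood at a median of 10.4% of that mean and 164 genes of distal chromosome 15 at 8.10%, against 104% for 10989 genes of known position elsewhere. CTBP1 was thus lower than the median of its chromosome, and 47 of the 386 genes were lower still. The other 8 members, on other chromosomes, stood at 75.4 (CTBP2) to 99.4% (NCOA1). A response of CTBP1 at 12 h and the loss across its chromosome in that library cannot be told apart. Leaving out these regions leaves out CTBP1 itself. That 0 of the other 8 members were at least 2-fold lower at 12 h is thus no separate result.

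**Figure D4:**
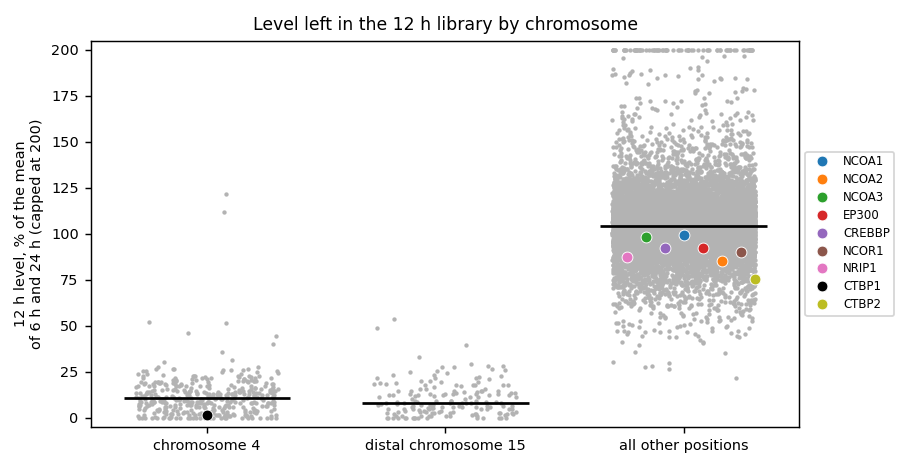
Level at 12 h in percent of the mean of the 6 h and 24 h levels (linear axis, capped at 200) for genes of chromosome 4, distal chromosome 15 and all other known positions, with 1 grey point per gene, black lines for medians and the members in colour. CTBP1 lies at 1.5%, near the bottom of chromosome 4, and the other members lie between 75.4 and 99.4%.

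Exon bases of NCOA3, EP300, NCOR1, NRIP1, CTBP1 and CTBP2 are shared with genes on the opposite strand, and whether the counts use strand was not given in the sources used here. In GENCODE v29 the antisense gene CTBP1-AS covers 810 of the 8361 exon bases of CTBP1, and CTBP1-DT 305. For NRIP1 an antisense gene covers 562 of 8497 bases. ZRANB1, a protein-coding gene on the opposite strand, covers 3416 of the 10946 exon bases of CTBP2, and an antisense gene 379. In NCOR1 PIGL covers 321 and an antisense gene 188 of 15404 bases, in EP300 an antisense gene covers 107 of 12500, and in NCOA3 SULF2 covers 96 of 8402. If the counts do not use strand, reads of a gene and its antisense partner cannot be told apart in them, and their share was not tested. On the same strand a noncoding RNA gene covers 87 bases of NRIP1 and the microRNA gene MIR1281 54 of EP300. Use of strand would not separate these. The exon bases are those of all GENCODE transcripts of a gene, so shared bases may lie outside the transcript that was counted.

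Levels of different genes were compared only per kilobase, with transcript lengths from GENCODE v29. CTBP1 averaged 221 CPM per kilobase over the 6 libraries and 265 without 12 h, on a transcript of 2.297 kilobases. NCOR1 and EP300 followed with 24.0 and 23.9, and their ranges over the libraries overlapped (18.6 to 30.4 and 21.8 to 26.6). CTBP2 averaged 19.3, CREBBP 16.8, NCOA2 12.4, NCOA1 12.2 and NRIP1 11.8, and each range overlapped that of its neighbours. NCOA3 was lowest at 5.84 CPM per kilobase. Its range of 3.91 to 6.60 overlapped that of NRIP1 (2.22 to 19.5) and lay below those of NCOA1 and NCOA2. NRIP1 had the lowest value in untreated cells (4.06) and at 3 h (2.22), and at 48 h, with 19.5, it stood above NCOA1, NCOA2, NCOA3 and CREBBP. These times are not replicates, so the ranges mix treatment and error. The levels per kilobase are not corrected for GC content. The 48 h change of NRIP1 was 2.23 as measured and 1.13 corrected. Its place among the members on the corrected scale was not tested.

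**Figure D5:**
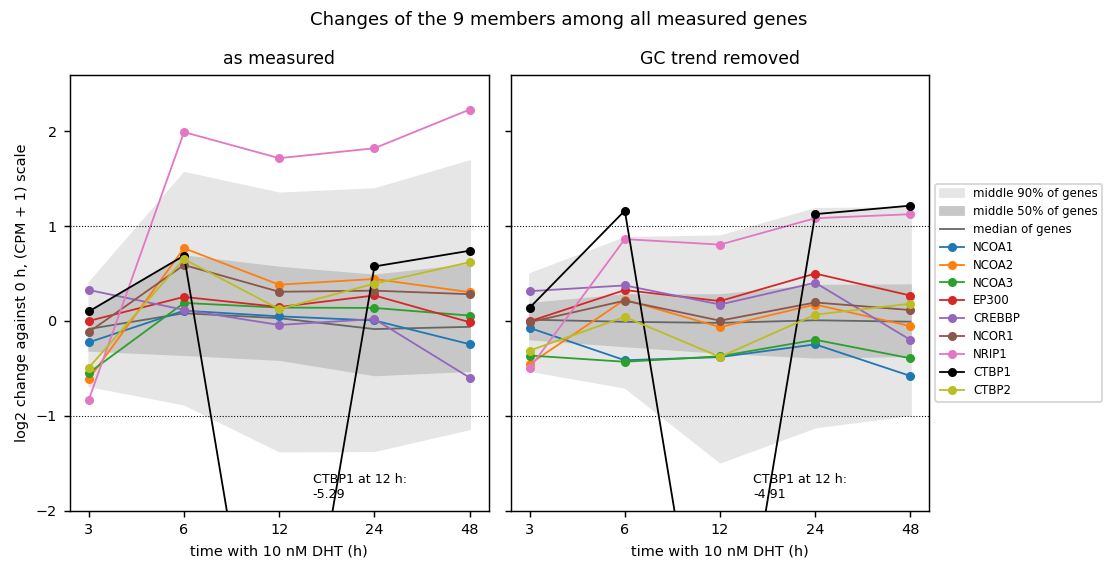
Log2 change of each member from untreated cells against time with 10 nM DHT, as measured and with the GC trend removed, over bands that hold the middle 50 and 90% of all measured genes (dotted lines mark 2-fold). NRIP1 lies above the 90% band from 6 h on as measured, and CTBP1 leaves the axis at 12 h, where its values are -5.29 as measured and -4.91 corrected.

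By the distance between profiles of the 5 changes, the gene most like NRIP1 among 11916 was ZHX1, with changes of -0.74, 2.04, 1.84, 1.85 and 2.21 at a distance of 0.16. Its GC content is 39.3%. TMF1, which has been described as an androgen receptor coactivator and is on a list below, was the fifth nearest at 0.31, with a GC content of 36.1%, and was looked at after its rank was seen. For CTBP1, whose range over the 6 libraries was the largest at 6.03, the 5 nearest genes were UTP3, FGFRL1, MRFAP1L1, ZNF595 and PIGY, all of chromosome 4, at distances of 0.79 to 0.93. The distance includes 12 h, where CTBP1 was at -5.29 and genes of chromosome 4 were low. Genes without such a low 12 h value could not be near, so these neighbours are no separate result. The nearest genes to other members were ZNF250 for NCOA1, RBM7 for NCOA2, INTS4 for EP300, DFNB59 (now PJVK) for CREBBP, TUBGCP3 for NCOR1 and MAP3K7IP2 (now TAB2) for CTBP2, at 0.11 to 0.18.

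Partners of the 9 genes were followed on 6 lists of other coregulators, of which 112 genes were found and 104 had enough counts. At 24 h 12 of the 104 were at least 2-fold higher and 3 lower, beside 10.5 and 10.8% of all genes, and at 48 h 13 and 5, beside 15 and 7.33%. Their median change was 0.03 at 24 h and -0.08 at 48 h, beside -0.09 and -0.06 over all genes. With the GC trend removed, 7 were higher and 2 lower at 24 h, beside 7.09 and 6.55% of all genes.

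Among 10 enzymes and adaptors that work with p160 proteins, 1 rose and 1 fell at 24 h, where 10.5 and 10.8% of all genes did. The 1 that rose and the 1 that fell were paralogous acetyltransferases. KAT2B (listed as PCAF) had 24.2 CPM at 24 h, against 8.35 CPM in untreated cells, 2.90 times as much (2.36 to 3.603), and its change was 1.43 as measured and 1.24 corrected. KAT2A (listed as GCN5L2) had 61.0 CPM at 24 h, against 136 CPM in untreated cells, 0.448 times as much (0.416 to 0.482), and its change was -1.15 as measured and -0.63 corrected, short of 2-fold. Both stayed past 2-fold at 48 h as measured, with 1.599 and -1.12. DDX5, an RNA helicase that acts as a coactivator, came next at 24 h with 0.80 as measured and 0.65 corrected.

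Of 8 genes of the NCoR complex, 3 rose and 0 fell at 24 h, beside 10.5 and 10.8% of all genes. The same 3 were past 2-fold higher at 48 h as measured, where 15% of all genes were. With the GC trend removed 1 of the 8 was higher at 24 h and 1 at 48 h, beside 7.09 and 7.22% of all genes. CORO2A, a coronin found with the complex, reached 1.19 at 24 h and 1.27 at 48 h (1.36 and 1.48 corrected). TBL1XR1, a subunit known for exchanging corepressors for coactivators, reached 1.08 and 1.28, and ZBTB33, a methyl-DNA-binding repressor, 1.13 and 1.36. The corrected changes at 24 h were 0.47 in TBL1XR1 and 0.38 in ZBTB33, short of 2-fold, and at 48 h 0.42 and 0.22. Close to the share over all genes, 1 of 9 measured genes of the CtBP complex rose at 24 h. It was LCOR, a ligand-dependent corepressor that binds CtBP proteins, with 1.26 at 24 h and 1.83 at 48 h (0.70 and 1.05 corrected). RCOR3 and ZNF217, next in size, had 0.61 and 0.71 as measured and -0.22 and 0.41 corrected. ZEB1 and ZEB2, DNA-binding partners of CtBP, were below 1 CPM in every library.

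Of 30 genes of Mediator, the bridge between coactivators and RNA polymerase, 2 rose and 1 fell at 24 h. Among all genes 10.5% rose and 10.8% fell at that time. MED21, a subunit of the middle module, had 1.21. In the kinase module, the cyclin CCNC had 1.17 and its partner kinase CDK8 -1.45. At 48 h CCNC had 1.86, MED21 1.16 and CDK8 -0.99 as measured. Corrected, these 48 h values were 0.92, -0.06 and -1.13, so that CDK8 alone was past 2-fold. CDK8 had 15.5 CPM at 24 h, against 44.1 CPM in untreated cells, 0.353 times as much (0.307 to 0.405), and was at -1.55 after correction, while CCNC and MED21 were then at 0.52 and 0.41. Of 16 SWI/SNF genes 0 rose and 1 fell at 24 h, SMARCD3, with -1.57 (-0.99 corrected) and -1.52 at 48 h (-1.03 corrected). ARID2 and PBRM1 came next at 24 h with 0.76 and 0.73 as measured and 0.26 and 0.51 corrected.

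Of 31 measured genes among other steroid receptor coregulators, 5 rose and 0 fell at 24 h, beside 10.5 and 10.8% of all genes. TMF1 had 2.06, the SUMO ligase PIAS1 1.64, DCAF6 (listed as IQWD1) 1.404, the transcriptional coactivator CCAR1 1.36 and TRIM24, a bromodomain coregulator, 1.27. All 5 were past 2-fold at 48 h too as measured, with 2.36, 1.69, 1.62, 1.13 and 1.03. Their corrected changes at 48 h were 1.06, 1.01, 1.35, 0.30 and 0.88, so CCAR1 and TRIM24 fell short there. The corrected changes at 24 h were 1.21, 1.15, 1.202, 0.78 and 1.16, so of these 5 CCAR1 alone fell short. Over the 31 genes 5 were then higher and 1 lower, beside 7.09 and 6.55% of all genes. Past 2-fold only after correction were ZMIZ1 at 1.12 and NCOA7 at -1.01. PIAS1 lies on distal chromosome 15 and had 7.04 CPM in the 12 h library, 11.4% of the mean of its 6 and 24 h levels.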

How the data were processed

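RNA was sequenced from 6 libraries of LNCaP cells, 1 per time. Per the file headers, the deposited table gives tags, whole-number counts per RefSeq transcript, and ppm, an RPM value that the authors made from those counts and a total for each library. The build was hg19, per the submitters' processing notes, while aligner, counter and strand setting were not given in the sources used here. Of 18051 lines 50 exact repeats were removed, and lines of 1 symbol were added, which left 17990 genes. The listed transcripts held 86.9 to 89.5% of the reads behind the RPM column, which served as an alternative.

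Counts were scaled to CPM over listed genes, with a pseudocount of 1, and genes averaging 20 or more counts per library entered (11916). The limit for a count of 0 was set at 3, which is 0.146 to 0.228 CPM by library. Intervals are exact Poisson for levels and exact conditional binomial for ratios over untreated cells. Those of ratios between 2 members over their untreated ratio are normal on the log scale. GC content and length came from GENCODE v29 transcripts (GRCh38), for 11484 (96.4%) of these genes, and the GC trend was a lowess curve (span 0.3, statsmodels 0.14.6). Chromosomes came from a RefSeq table on GRCh38.p14, for 96.8% of these genes. Distal chromosome 15 was taken as every gene starting at or beyond LCTL. Likeness of profiles is the Euclidean distance over the 5 changes. Python 3.11.15, pandas 2.3.3 and scipy 1.17.1 were used, and the steps were tested on simulated data.

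The members, the lists, the rule of size, the alternatives and the region boundary were chosen with earlier results of these data known. Named by rule were the 9 members, per list the 3 genes with the largest change at 24 h and those past 2-fold in 1 direction at 24 and 48 h, the 5 profiles nearest to the member with the largest range and the nearest 1 of each other member. Alternatives were other scalings, pseudocounts, no filter, GC correction and leaving out chromosome 4 and distal chromosome 15. The gene nearest to NCOA3 is not reported here.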

Additional observations from a re-analysis of the deposited data

How the results depend on the processing

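No paired analysis was possible because each group had 1 library, and for the same reason no replicate could be left out. The counts of members past 2-fold were the same at all 5 times under median-of-ratios and TMM scaling, the deposited denominator, pseudocounts of 0.1 and 5 and no filter on low counts. With the GC trend removed the number of members at least 2-fold higher was 0 at 12 h, 2 at 24 h and 2 at 48 h, against 1 at each of these times, and at 6 h it was 1, but CTBP1 in place of NRIP1. Without chromosome 4, distal chromosome 15 and genes of unknown position, 0 of the 8 members left were at least 2-fold lower at 12 h, against 1. This setting leaves out CTBP1, the member called lower, so the 0 was fixed by the choice. No call changed sign under any of these settings. Of 45 changes of single members, GC correction moved 40 by more than counting error and turned the sign of 13, none of them past 2-fold, and median-of-ratios and TMM scaling each turned 1, EP300 at 48 h, to 0.06 and 0.10. These 2 scalings moved the median of all genes at 24 h by 0.14 and 0.17, and TMM moved it by 0.10 at 48 h. Over all genes at 24 h, 1644 were higher and 984 lower under median-of-ratios and 1720 and 942 under TMM, against 1249 and 1287, and at 3 h 105 and 73 under TMM, against 89 and 103. GC correction left 433 higher and 179 lower at 6 h, against 1826 and 359, 457 higher at 12 h, against 1315, 814 and 752 at 24 h, and 829 and 553 at 48 h, against 1791 and 874, and 48 lower at 3 h. A pseudocount of 5 gave 38 and 19 at 3 h, 1132 and 151 at 6 h, 809 and 580 at 12 h, against 1315 and 952, and 691 and 473 lower at 24 and 48 h. A pseudocount of 0.1 gave 152 and 212 at 3 h, and without the regions above 420 genes were lower at 12 h. The cause of these shifts was not tested. The ratios between members and the step of 3 to 6 h were also recomputed without the GC trend, a choice made after seeing the data, and in the step NRIP1 and CTBP1 were past 2-fold, against NRIP1, NCOA2 and CTBP2. The lowest count of a member was 141 (CTBP1 at 12 h) and the next 237 (NRIP1 at 3 h), and with 1 library per time the spread between cultures is unknown.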
